A study of Bos taurus with 22 samples.

Results

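ACTA2, ACTG2 and KCNMB1 are 3 genes of contractile smooth muscle, out of 24616 genes in the count table. They were selected on their log2 fold change between feed intake groups of Charolais (CHAR), all 3 standing higher in low residual feed intake (L-RFI) than in high residual feed intake (H-RFI) steers of that breed in an earlier look at the same data, so their difference in that contrast is described here without a test. Their identifiers are ENSBTAG00000014614 for ACTA2, ENSBTAG00000015441 for ACTG2 and ENSBTAG00000002985 for KCNMB1. RNA-Seq was made of subcutaneous backfat of 22 steers. Angus (ANG) and Kinsella Composite (KC) each gave 4 H-RFI and 4 L-RFI animals, and CHAR gave 3 of each. The labels call KC a Hereford and Angus crossbred. By the paper, its sires were Angus, Charolais or Alberta Composite bulls, and its composite dam line held Hereford, Angus and Holstein. KC can therefore share ancestry with both other breeds. RFI is the feed an animal eats above or below what its weight and growth predict, here adjusted for backfat, and an L-RFI steer is a feed-efficient one. The labelled RFI values ran from 0.54 to 2.03 kg in H-RFI steers and from -1.77 to -0.75 kg in L-RFI steers. All steers were on the same finishing diet, whose pellet supplement included Rumensin, and were sampled at slaughter. No treatment was compared between the groups. Birth year differed among the steers of the study and was not used here. The labels call the cell type adipocytes, but the material was whole backfat with its vessels. None of the 10 listed adipocyte markers had an identifier here, so the label was not checked against them.

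In adipose tissue, smooth muscle cells sit mainly in the walls of arteries, arterioles and veins. ACTA2 encodes vascular smooth muscle actin, a filament protein of the contractile apparatus that is also made by myofibroblasts and some pericytes. ACTG2 encodes the enteric smooth muscle actin, which is most abundant in visceral smooth muscle and is also found in vessel walls. KCNMB1 encodes the beta-1 subunit of the large-conductance calcium-activated potassium (BK) channel. In arterial smooth muscle it raises the calcium sensitivity of the channel, whose opening hyperpolarises the cell and relaxes the vessel. The question for these genes was whether they differed with RFI or breed outside the CHAR contrast, and whether KCNMB1 followed the level of other smooth muscle genes from steer to steer. In whole tissue, fewer smooth muscle cells and less RNA per cell cannot be told apart.

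Libraries held 8033008 to 12426133 counts on genes, and all 3 genes were above a CPM of 1, where CPM is the count scaled to the library total, in every steer. ACTA2 was covered by 746 to 3881 counts, ACTG2 by 28 to 366 and KCNMB1 by 44 to 245, so KCNMB1 and ACTG2 carried more counting error. Levels below are CPM after trimmed mean of M-values (TMM) scaling. Ambiguous reads are those left unassigned because they overlapped more than one gene. As a share of ambiguous reads plus counts on genes, they were 0.807% to 1.24% in 6 steers (F8, F10, F14, F18, F25 and F28). In the other 16 steers, all 6 CHAR steers among them, they were 2.39% to 5.92%. Reads outside genes are not in this share. In the RefSeq annotation of ARS-UCD2.0, KCNMB1 lies inside the span of KCNIP1, ACTG2 overlaps a pseudogene (LOC101909718) and a long non-coding RNA (LOC132346547), and ACTA2 overlaps no other gene. Whether the counting used strand was not given in the sources used here, so reads of KCNMB1 and ACTG2 may not be fully separate from those of their overlapping genes.

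ACTA2 showed its widest range in CHAR. The CHAR H-RFI steers F36, F43 and F48 had 61.4, 80.0 and 114 CPM, and the CHAR L-RFI steers F33, F46 and F47 had 345, 203 and 154 CPM. ANG H-RFI steers F20, F21, F28 and F32 had 175, 95.1, 142 and 173 CPM, and ANG L-RFI steers F18, F23, F24 and F25 had 118, 216, 133 and 102 CPM. In KC, the H-RFI steers F1, F7, F8 and F9 had 296, 170, 140 and 152 CPM, and the L-RFI steers F10, F11, F14 and F16 had 89.0, 178, 145 and 151 CPM. The RFI groups overlapped in ANG and in KC for this and the other 2 genes, while 2.93% of all genes in ANG and 10.9% in KC had groups that did not overlap. In CHAR every L-RFI steer was above every H-RFI steer. F46 and F47 of CHAR L-RFI were inside the range of ANG and KC, and F36 and F43 of CHAR H-RFI had the lowest levels of all 22 steers.

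ACTG2 varied more widely than ACTA2. Its levels were 2.31, 4.56 and 7.41 CPM in the CHAR H-RFI steers F36, F43 and F48, and 32.6, 12.3 and 11.3 CPM in the CHAR L-RFI steers F33, F46 and F47. The ANG H-RFI steers F20, F21, F28 and F32 had 4.45, 4.12, 13.9 and 9.49 CPM, and the ANG L-RFI steers F18, F23, F24 and F25 had 5.25, 16.5, 5.90 and 3.63 CPM. The KC H-RFI steers F1, F7, F8 and F9 had 20.4, 8.69, 4.59 and 5.27 CPM, and the KC L-RFI steers F10, F11, F14 and F16 had 3.26, 8.48, 10.5 and 6.32 CPM. ACTG2 was highest in F33 and F1, the same 2 steers that were highest for ACTA2. Again the RFI groups overlapped in ANG and KC and not in CHAR.

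KCNMB1 was the flattest of the 3 genes outside CHAR L-RFI. It stood at 6.92, 9.44 and 7.08 CPM in the CHAR H-RFI steers F36, F43 and F48, and at 20.03, 21.4 and 18.3 CPM in the CHAR L-RFI steers F33, F46 and F47. The ANG H-RFI steers F20, F21, F28 and F32 had 9.80, 9.57, 9.47 and 11.2 CPM, and the ANG L-RFI steers F18, F23, F24 and F25 had 9.39, 12.01, 9.999 and 10.2 CPM. The KC H-RFI steers F1, F7, F8 and F9 had 12.8, 11.4, 11.04 and 9.34 CPM, and the KC L-RFI steers F10, F11, F14 and F16 had 10.6, 9.89, 5.36 and 7.37 CPM. The 3 CHAR L-RFI steers had the 3 highest levels of all 22, and no other steer exceeded the 12.8 CPM of F1. By group mean the order was CHAR L-RFI (19.9 ± 1.57, SD, n = 3), KC H-RFI (11.2 ± 1.44, n = 4), ANG L-RFI (10.4 ± 1.13, n = 4), ANG H-RFI (10.02 ± 0.825, n = 4), KC L-RFI (8.29 ± 2.39, n = 4) and CHAR H-RFI (7.81 ± 1.41, n = 3). Below CHAR L-RFI, each step between neighbours in this order was smaller than the larger of their SDs.

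**Figure D1:**
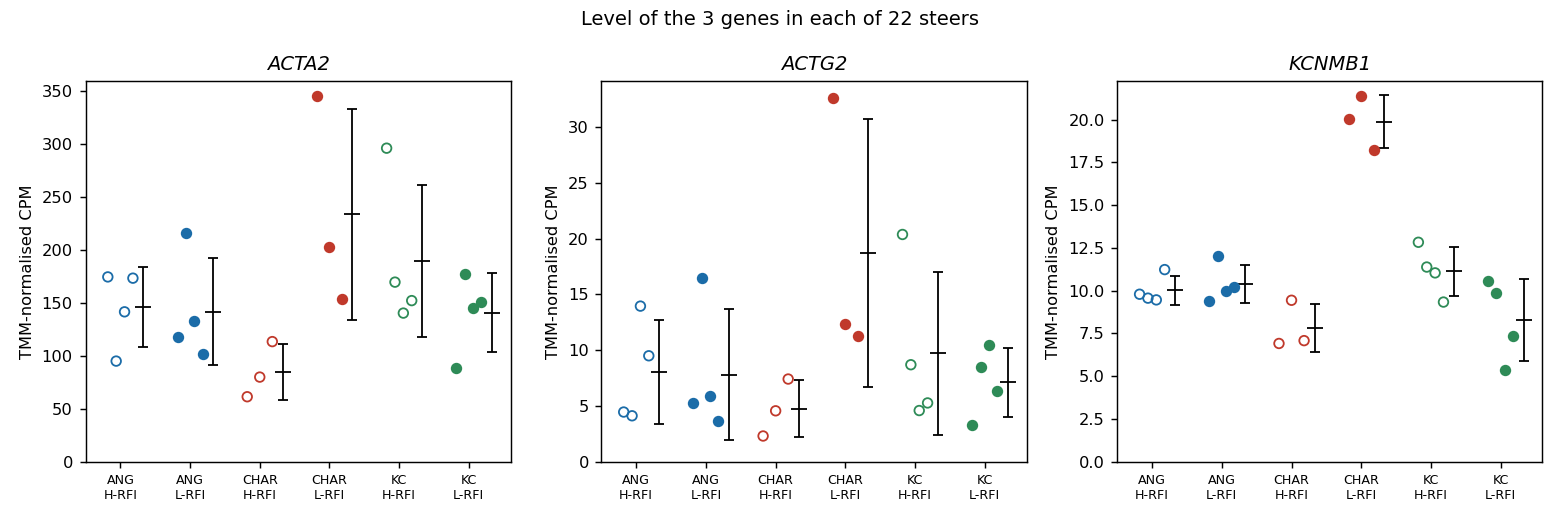
TMM-normalised CPM of ACTA2, ACTG2 and KCNMB1 in 22 steers by breed and RFI group, with open points for H-RFI, filled points for L-RFI, and black bars for the group mean ± SD (n = 3 in each CHAR group and 4 in each other group). The CHAR L-RFI steers lie at 18.3 to 21.4 CPM for KCNMB1, apart from all other steers, while for ACTA2 and ACTG2 F46 and F47 fall within the range of ANG and KC and F33 lies above it.

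In the contrast that chose the genes, the fitted log2 fold change (log2FC, CHAR L-RFI over H-RFI) was 1.46 for ACTA2, 2.00 for ACTG2 and 1.35 for KCNMB1, or 2.76-, 4.01- and 2.55-fold. Of the 13737 genes tested in CHAR, 0.939% had a log2FC of at least 1 and 5.35% had every L-RFI steer above every H-RFI steer. The SE of these log2FC values was 0.333, 0.534 and 0.171. F33 was the highest steer for both actins, and F46 and F47 were also above all 3 CHAR H-RFI steers for each of the 3 genes. Over the leave-one-out fits the log2FC ranged from 1.07 to 1.73 for ACTA2, from 1.32 to 2.48 for ACTG2 and from 1.27 to 1.504 for KCNMB1. This contrast chose the genes, so its SE values and ranges only describe it and are no evidence of a difference. The Schwann cell gene PRX, which encodes periaxin of peripheral nerve myelin, also had a large log2FC in CHAR, at 3.29 (edgeR FDR 0.948). PRX too was named by the study from a contrast of RFI groups in the same data, so this value is no independent evidence. PRX reached 30.6 CPM in F33 and 5.15 CPM in F46 but 1.52 CPM in F47, against at most 1.38 CPM in CHAR H-RFI, while KCNMB1 was at a like level in all 3 L-RFI steers. The part of nerve or vessel content in the difference was not tested.

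The RFI groups did not differ detectably in ANG for any of the 3 genes. The log2FC of L-RFI over H-RFI was -0.05 for ACTA2 (95% interval -0.62 to 0.53), -0.06 for ACTG2 (-1.22 to 1.11) and 0.05 for KCNMB1 (-0.27 to 0.37), with edgeR quasi-likelihood FDR of 0.996, 0.9996 and 0.996. Exact 2-sided permutation tests of the mean log2(CPM + 1) gave p = 0.886, 0.914 and 0.543, where the smallest p that 4 against 4 steers allow is 0.0286. None of the genes tested in ANG passed FDR < 0.1 with an absolute log2FC of at least 1 by the quasi-likelihood test, 5.04% had an unadjusted p under 0.05, DESeq2 called 32 and the edgeR exact test called 46. No member was called by any of them.

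In KC all 3 genes had lower fitted levels in L-RFI steers, and none passed the test. The log2FC was -0.43 for ACTA2 (95% interval -1.02 to 0.16, FDR 0.415), -0.44 for ACTG2 (-1.53 to 0.64, FDR 0.668) and -0.42 for KCNMB1 (-0.91 to 0.08, FDR 0.347), by edgeR's quasi-likelihood test. The exact permutation p was 0.371, 0.657 and 0.114. Without F1 the log2FC was -0.13 for ACTA2 and 0.20 for ACTG2, so the sign for ACTG2 rested on that steer. Without F14 the log2FC of KCNMB1 was -0.26. For KCNMB1 the lower mean came from F14 and F16, at 5.36 and 7.37 CPM, while F10 and F11 lay within the KC H-RFI range. Of the genes tested in KC, 0.00729% passed the same call rule and 18.2% had an unadjusted p under 0.05.

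Fitted over the 16 ANG and KC steers with breed as a term, where 0.00735% of all genes passed the same call rule, the log2FC of L-RFI over H-RFI was -0.24 for ACTA2 (FDR 0.596), -0.25 for ACTG2 (FDR 0.795) and -0.19 for KCNMB1 (FDR 0.550) by edgeR. The 95% intervals were -0.66 to 0.18, -1.06 to 0.56 and -0.48 to 0.11. The RFI effect of KC minus that of ANG was -0.39 for ACTA2, -0.39 for ACTG2 and -0.47 for KCNMB1 (edgeR FDR 0.799, 0.900 and 0.568). A difference between ANG and KC in the RFI effect was therefore not detected for any of the 3 genes.

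Breed averages of the actins did not differ detectably. Of all genes, 0.338% were called in KC against ANG, 0.213% in CHAR against ANG and 1.48% in CHAR against KC. Both CHAR comparisons use the steers whose RFI contrast chose the genes, so they are not independent of that choice. ACTA2 differed by 0.18 on the log2 scale in KC against ANG, by -0.03 in CHAR against ANG and by -0.21 in CHAR against KC (edgeR FDR 0.661, 0.970 and 0.584). ACTG2 differed by 0.07, 0.25 and 0.18 in the same comparisons (FDR 0.938, 0.842 and 0.824). KCNMB1 was -0.08 in KC against ANG (FDR 0.733), 0.29 in CHAR against ANG (FDR 0.338) and 0.37 in CHAR against KC (FDR 0.0748). The last value passed FDR < 0.1, as did 17.2% of all genes in CHAR against KC, but its log2FC was under 1. It averages the highest and the lowest KCNMB1 groups of the series, since CHAR L-RFI was above and CHAR H-RFI below both KC groups by mean. Its FDR was 0.124 without the low-count filter and 0.0400 to 0.206 over the other settings and left-out steers, the highest of these without F43.

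**Figure D2:**
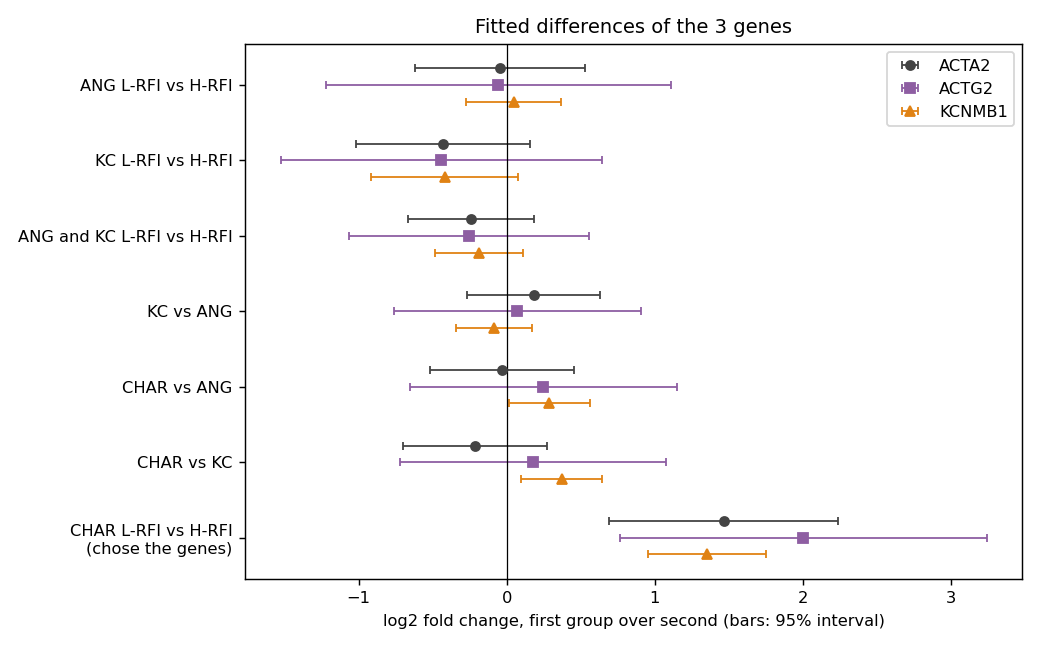
Fitted log2FC of ACTA2, ACTG2 and KCNMB1 with 95% intervals for 7 comparisons, the first-named group over the second. In ANG and KC the RFI intervals include 0 for all 3 genes. The CHAR RFI contrast, which chose the genes, lies between 1.35 and 2.00, and its intervals are no test.

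Steer-to-steer variation was used to ask which genes moved together, in the 16 ANG and KC steers that the choice of the genes did not use. Of the 22 listed smooth muscle genes, DES, TPM2 and MRVI1 had an identifier that could be tied to a symbol. DES encodes desmin, an intermediate filament protein, TPM2 encodes beta-tropomyosin, and MRVI1 (IRAG1 in RefSeq) encodes a substrate of cGMP-dependent protein kinase that lowers calcium release in smooth muscle. DES and TPM2 are also made by skeletal muscle. These 3 genes were named by the study from the CHAR contrast in the same data, so their rise in CHAR is no independent evidence. Their log2FC in CHAR L-RFI over H-RFI was 1.91, 1.18 and 1.03, a median of 1.18 beside 0.00 over all genes, and in no comparison did any of the 3 pass FDR < 0.1 by edgeR's quasi-likelihood test. The score used here is the mean log2(CPM + 1) of DES, TPM2 and MRVI1.

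ACTA2 and ACTG2 rose and fell together, and with the other smooth muscle genes. Over the 16 steers the Pearson r of ACTA2 with ACTG2 was 0.80 (95% interval 0.51 to 0.93, Spearman rho 0.71, permutation p = 0.00012, adjusted p = 0.00066 over 22 relations), and it was 0.62 without the 2 steers farthest from the median. The r with the score was 0.86 for ACTA2 and 0.85 for ACTG2 (rho 0.78 and 0.80, adjusted permutation p = 0.00022 for both), and 0.80 and 0.78 without the 2 farthest steers. By single gene, ACTA2 had r of 0.79 with DES, 0.79 with TPM2 and 0.69 with MRVI1, and ACTG2 had 0.88, 0.75 and 0.59, with adjusted permutation p of at most 0.0348. After centring within the 4 groups, ACTA2 with ACTG2 kept r = 0.82 and the score kept r = 0.94 with ACTA2 and 0.87 with ACTG2 (adjusted permutation p = 0.0102, 0.00279 and 0.00302). The r of ACTA2 with ACTG2 was 0.71 within ANG and 0.90 within KC, and 0.86 in the 10 steers with over 2% ambiguous reads and 0.78 in the 6 below.

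KCNMB1 showed no detectable relation to any of these genes over the same 16 steers. Its r was 0.30 with ACTA2 (95% interval -0.23 to 0.69, rho 0.34, adjusted permutation p = 0.5002 for r and 0.316 for rho), 0.14 with ACTG2 (-0.38 to 0.60, rho 0.21, adjusted permutation p = 0.674 and 0.486) and 0.25 with the score (-0.28 to 0.66, rho 0.34, adjusted permutation p = 0.560 and 0.316). With DES, TPM2 and MRVI1 singly it was 0.23, 0.21 and 0.22. Without the 2 steers farthest from the median the r with ACTA2, ACTG2 and the score became 0.20, -0.29 and 0.24, and centred within groups it was 0.20, 0.09 and 0.17. The difference between these correlations and those of the actins was not tested.

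The KCNMB1 result was not uniform over the steers. Within ANG its r with ACTA2, ACTG2 and the score was 0.69, 0.56 and 0.69, and within KC it was 0.30, 0.05 and 0.10. In the 10 steers with over 2% ambiguous reads it was 0.62, 0.74 and 0.61, and in the 6 below it was -0.47, -0.59 and -0.39. The unadjusted permutation p with ACTA2 and ACTG2 was 0.0595 and 0.0143 in the 10 steers, and 0.344 and 0.205 in the 6. This split was not planned, and a difference between the subsets was not tested. F14 of KC L-RFI, which had the lowest KCNMB1 of all steers at 44 counts and mid-range actins, lowered the relation most. Without it the r was 0.46, 0.46 and 0.41. Without F1 it was 0.11, -0.06 and 0.13.

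Counting error bears on this comparison. In ANG the SD of KCNMB1 within groups was 0.123 on the log2 scale, below the 0.137 that counting alone gives. No spread beyond counting error was therefore seen in ANG. So few steers estimate the SD only loosely, and a real difference between ANG steers was not tested. In KC the SD was 0.305 against 0.137 from counting. Over both breeds counting made up 34.7% of the KCNMB1 variance within groups, against 0.762% for ACTA2 and 4.19% for ACTG2, and an error-free gene in exact proportion to KCNMB1 could reach an r of about 0.808. The SD of KCNMB1 over ANG and KC, 0.232, was smaller than that of ACTA2 (0.448) or ACTG2 (0.774) with counting error included.

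**Figure D3:**
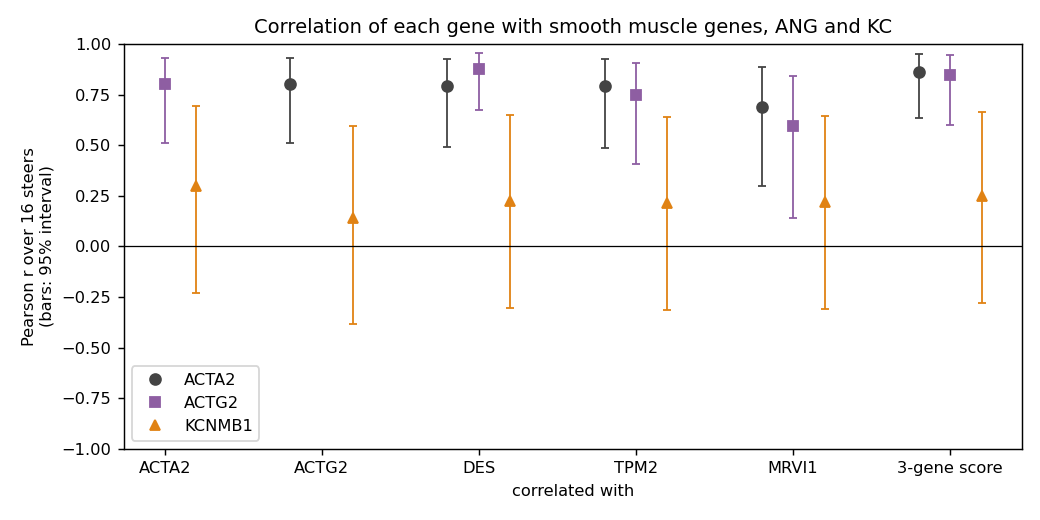
Pearson r with 95% intervals over 16 ANG and KC steers for ACTA2, ACTG2 and KCNMB1 with each other, with DES, TPM2 and MRVI1, and with the mean of the last 3. The actins lie between 0.59 and 0.88, and KCNMB1 between 0.14 and 0.30 with intervals that include 0.

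With all 22 steers pooled, which is given as a description, KCNMB1 had r = 0.58 with ACTA2, 0.54 with ACTG2 and 0.63 with the score. Centred within the 6 groups these were 0.19, 0.10 and 0.23. By r pooled over 22 steers, ACTA2 ranked 25 of 13605 genes for KCNMB1, and centred within groups it ranked 3285. The ACTG2 rank for ACTA2 was 3 pooled and 5 centred. Since all 3 genes were selected for standing higher in CHAR L-RFI than in CHAR H-RFI steers, the pooled values and ranks over steers that include CHAR are raised by that choice, and nothing is read from them.

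**Figure D4:**
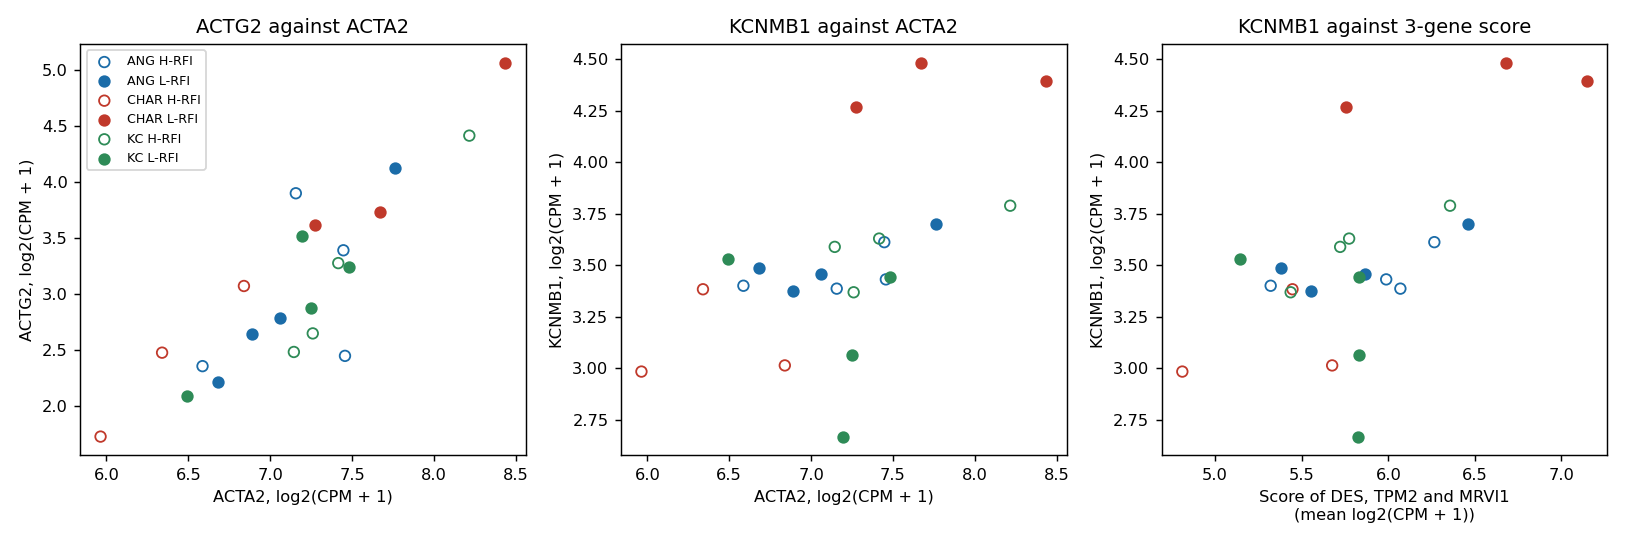
ACTG2 against ACTA2, KCNMB1 against ACTA2, and KCNMB1 against the score of DES, TPM2 and MRVI1, all as log2(CPM + 1), 1 point per steer with open points for H-RFI and filled points for L-RFI. The actins lie along 1 band, while the CHAR L-RFI steers lie above the other steers in both KCNMB1 panels and F14 of KC L-RFI lies lowest.

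KCNMB1 relative to ACTA2 did not separate the RFI groups of ANG or KC. As a percentage of the ACTA2 CPM in the same steer, which is not a comparison per length, KCNMB1 was 11.3%, 11.8% and 6.24% in the CHAR H-RFI steers F36, F43 and F48, and 5.80%, 10.6% and 11.9% in the CHAR L-RFI steers F33, F46 and F47. The CHAR groups therefore overlapped in the ratio although they did not overlap in either gene. Both genes were selected for standing higher in CHAR L-RFI steers, so nothing is read from the ratio in CHAR. In ANG the ratio ran from 5.61% to 10.1% in H-RFI and from 5.56% to 10.02% in L-RFI steers, and in KC from 4.33% to 7.86% and from 3.69% to 11.9%. KCNMB1 minus the score, on the log2 scale, differed between L-RFI and H-RFI by 0.14 in ANG (exact permutation p = 0.60) and by -0.25 in KC (exact permutation p = 0.486). Between KC and ANG it differed by 0.03 (permutation p = 0.894), and KCNMB1 minus ACTA2 differed by -0.27 (permutation p = 0.224).

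**Figure D5:**
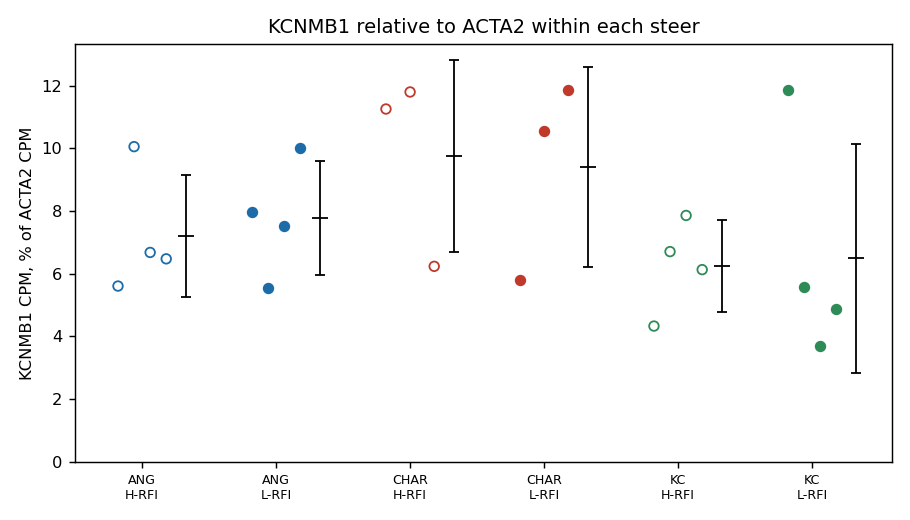
KCNMB1 CPM as a percentage of ACTA2 CPM in each of 22 steers by breed and RFI group, with black bars for the group mean ± SD. The ratio runs from 3.69% to 11.9% in KC L-RFI and overlaps between RFI groups in each breed. Nothing is read from CHAR, whose RFI contrast chose both genes.

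Other listed genes with an identifier were few, and each had one because the study called it between RFI groups in the same data. Their RFI log2FC and FDR values are therefore a description and no independent evidence of a difference. LRRC55, a gamma subunit of the BK channel and the only other one of 7 listed BK channel genes with an identifier, ranged from 0.659 to 15.3 CPM and had r = 0.30 with KCNMB1 over the 16 steers (adjusted permutation p = 0.5002). Its log2FC for L-RFI over H-RFI was -1.09 in ANG, -1.64 in KC and -0.46 in CHAR (edgeR FDR 0.994, 0.207 and 0.981). KCNA5, a voltage-gated potassium channel subunit of vascular smooth muscle and heart, was the only one of 22 smooth muscle tone genes with an identifier. It was higher in CHAR than in KC (log2FC 1.06, edgeR FDR 0.0330), with group means of 1.37 CPM in KC H-RFI, 4.24 CPM in KC L-RFI, 4.49 CPM in CHAR H-RFI and 5.64 CPM in CHAR L-RFI. Its log2FC for L-RFI over H-RFI was -0.08 in ANG, 1.62 in KC and 0.34 in CHAR (edgeR FDR 0.996, 0.138 and 0.981). Its r with KCNMB1 over the 16 steers was -0.08 (adjusted permutation p = 0.819). PERP, a desmosome gene used as a keratinocyte marker, had a log2FC of -1.34 in CHAR against KC (edgeR FDR 0.09999), at 0.267 to 7.02 CPM.

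The skeletal muscle genes TTN and NEB, which encode giant sarcomere proteins, stood far above the rest in 1 steer, F11 of KC L-RFI, at 2355 and 200 CPM against at most 272 and 7.31 CPM in any other steer. ACTA2, ACTG2 and KCNMB1 in F11 were 178, 8.48 and 9.89 CPM, within the range of the other KC steers. TPM2, which skeletal muscle also makes, was at 83.7 CPM in F11, the highest of the 16 ANG and KC steers, so F11 also enters the score through it. Without F11 the r with the score was 0.87 for ACTA2, 0.85 for ACTG2 and 0.25 for KCNMB1. KCNMB1 had r of -0.04 with TTN, -0.14 with NEB, -0.12 with PRX and -0.40 with PERP over the 16 steers, with adjusted permutation p of 0.282 or more.

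Among the 231 genes with both a symbol and enough counts, the 5 most like ACTA2 by r over 22 steers centred within groups were TPM2 (0.89), DES (0.87), ACTG2 (0.86), COL4A5 (0.84) and DUOX2 (0.77). For ACTG2 they were ACTA2 (0.86), DES (0.85), DUOX2 (0.84), DUOXA2 (0.82) and TPM2 (0.78). COL4A5 encodes a basement membrane collagen chain, and DUOX2 and its maturation factor DUOXA2 form a hydrogen peroxide-producing oxidase. For KCNMB1 the 5 were KCNA5 (0.56), GOLGA7B (0.54), WIPF3 (0.46), HPGD (0.46) and HOGA1 (0.46), and KCNA5 ranked 125 of 13605 genes, the 124 above it having no symbol here. None of these 5 was among the 5 given for ACTA2 or for ACTG2. All symbols came from genes that the study called between RFI groups, and genes without a symbol could not be named. Nothing is therefore read from the lack of overlap. HPGD encodes the enzyme that inactivates prostaglandins, and HOGA1 a mitochondrial aldolase of hydroxyproline breakdown.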

How the data were processed

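Backfat RNA from 22 steers was sequenced as rRNA-depleted, stranded, paired-end libraries. The authors aligned reads to UMD3.1 with TopHat2 2.0.9, sorted them with SAMtools 1.1 and deposited raw counts per gene from HTSeq 0.6.1; the annotation version and strand setting are not given in the sources used here. Groups came from the labels, which number each steer separately. Symbols came from the study's list of genes called between RFI groups, which gave 242 identifiers. Of 135 genes in 13 lists, 10 had an identifier. None of the 8 genes of the planned smooth muscle score had one, so a score of DES, TPM2 and MRVI1 was chosen after seeing the data, and scores of other cell types were not made. The members and lists were chosen with earlier results of these data known. No sequence or coordinate of UMD3.1 was used here.

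After genes were filtered to those over 1 CPM in 50% or more of the animals compared, tests were run with edgeR 4.0.16 (TMM, quasi-likelihood, Benjamini-Hochberg), and called at FDR < 0.1 with absolute log2FC of at least 1, in R 4.3.3. RFI contrasts were fitted within breed, and breed contrasts over 22 steers in 6 groups. DESeq2 1.42.0 was an alternative. Scripts were tested on simulated data. Single genes and correlations used log2(TMM CPM + 1) with exact or 100000-resample 2-sided permutation tests, and 95% intervals of r came from Fisher's z. Alternatives were RLE scaling, no filter, the edgeR exact test, RFI as a regressor, the fit of all 22 steers, a pseudocount of 0.25, CPM on the total count and leaving out each steer. Named genes were the members, listed genes by a fixed rule of test or size, and the 5 genes with a symbol most like each member. Library totals were 8033008 to 12426133 counts, and intervals cover the spread between steers, counting error included.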

Additional observations from a re-analysis of the deposited data

Results flagged for a closer look

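MRVI1 in F23 of ANG L-RFI stood at 110 CPM, apart from the other 3 steers of its group, the nearest of which had 51.3 CPM. The gap took up 0.866 of the range of the group, above the critical value of 0.829 for 4 samples. It was the only such steer in 24 sets of 4 steers (6 smooth muscle genes in 4 groups), where chance gives about 1 in 20. F23 also had the highest ACTA2, ACTG2 and KCNMB1 of ANG, at 216, 16.5 and 12.01 CPM.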

How the results depend on the processing

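No paired analysis was possible because the labels number every steer separately and no RFI groups share a number. The limits are 3 or 4 steers a group, low KCNMB1 and ACTG2 counts, and the few smooth muscle genes with an identifier. No member was called by FDR and log2FC in any comparison outside CHAR under any alternative. With RFI as a regressor (log2 per kg), ACTA2 in ANG became 0.0066, and the CHAR values became 0.79, 1.07 and 0.69 for ACTA2, ACTG2 and KCNMB1, a change of unit.

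Leaving out each steer in turn, the RFI log2FC in ANG ranged from -0.32 to 0.085 for ACTA2, from -0.71 to 0.35 for ACTG2 and from -0.029 to 0.11 for KCNMB1. For ACTG2 it ranged from -0.68 to 0.20 in KC and from -0.56 to 0.060 in ANG and KC together. Between breeds it ranged from -0.25 to 0.40 (KC against ANG), from -0.085 to 0.58 (CHAR against ANG) and from -0.16 to 0.50 (CHAR against KC) for ACTG2, and from -0.23 to 0.11 for ACTA2 in CHAR against ANG. KCNMB1 minus ACTA2 ranged from -0.022 to 0.28 in ANG and from -0.33 to 0.19 in KC, and the r of KCNMB1 with ACTG2 from -0.063 to 0.46. The cause of these changes was not tested.

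The count of all genes called depended on the tool. In ANG it was 0, with 32 by DESeq2, 46 by the edgeR exact test and 0 to 1 without a steer. In KC it was 1, with 165 by DESeq2, 177 by the exact test, 0 with RFI as a regressor, 109 in the fit of all 22 steers and 0 to 54 without a steer. ANG and KC together had 1, with 39 by DESeq2 and 0 to 35 without a steer. CHAR had 0, with 23 by DESeq2, 39 by the exact test, 1 in the fit of all 22 and 0 to 1 without a steer. KC against ANG had 46 (18 to 99 without a steer), CHAR against ANG 29 (79 by DESeq2, 0 to 59 without a steer) and CHAR against KC 201 (313 without the filter, 147 to 314 without a steer).

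Among the correlations, ACTA2 with ACTG2 missed p < 0.05 within ANG (0.71) and in the 6 steers with under 2% ambiguous reads (0.78), a smaller number of steers. In those 6 steers KCNMB1 was at -0.47 with ACTA2, -0.59 with ACTG2, -0.39 with the score, -0.39 with DES, -0.66 with TPM2 and -0.10 with MRVI1. In the 10 others KCNMB1 with ACTG2 was at 0.74, and this split of the steers was not planned. Within KC, KCNMB1 with MRVI1 was at -0.024.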
